A study of Rattus norvegicus with 9 samples.

Results

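A set of 10 genes that mark macrophages and other myeloid cells was followed across bladder tumors, the tissue next to them and normal bladder of the rat. They are Itgax, Itgam, Itgb2, Cd68, Cd163, Mrc1, Csf1r, Cd14, Aif1 and Ptprc. They were chosen by name, as the probe sets that the array annotation assigns to 1 of these symbols only. All 10 were measured, by 12 of the 31042 probe sets that are not array controls (10 of 14217 genes). Aif1 and Ptprc have a second, dimmer probe set each. RNA came from 9 tissue samples of female Sprague-Dawley rats on Affymetrix arrays. The 3 tumors were bladder transitional cell carcinomas raised by weekly instillation into the bladder of MNU (N-methyl-N-nitrosourea, an alkylating carcinogen) at 20 mg/ml for 10 weeks. The 3 adjacent samples, titled adjacent normal tissue, were taken beside tumors from the 3 tumor-bearing rats. The 3 normal bladders came from separate normal rats. The MNU exposure is written on all 9 labels, with an age of 10 weeks, although the series design speaks of normal animals for the last group; no source used here says whether these received an instillation without MNU.

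Macrophages settle in tissues as resident cells and also arise from blood monocytes that enter during inflammation. Itgax (CD11c) and Itgam (CD11b) are the alpha chains that pair with Itgb2 (CD18), the common beta chain of the leukocyte integrins. Ptprc (CD45) is a phosphatase on the surface of nearly all nucleated blood cells. Cd14 is a co-receptor for bacterial lipopolysaccharide, and Csf1r is the receptor on which macrophages depend for survival. Mrc1 (CD206) and Cd163 are scavenger receptors typical of resident macrophages. Cd68 is a lysosomal glycoprotein and Aif1 (Iba1) a calcium-binding protein of the cytoplasm, so neither is mainly a surface molecule. Several of the genes are also used outside macrophages: Itgax by dendritic cells, Itgam and Itgb2 by neutrophils, and Itgb2 and Ptprc by lymphocytes.

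The promoters of 4 of these genes are shown because they stand for both behaviors described below. Cd14 and Cd68 were higher in tumors and in adjacent tissue, while Mrc1 and Csf1r were not. Sequences are from RefSeq (GRCr8) and run from 250 bases before to 50 after an annotated start, 5′ to 3′ along the gene. Capitals mark GAGGAA or its reverse complement TTCCTC, the core recognised by PU.1, a transcription factor of myeloid cells. The Cd14 window is chr18:28611109-28611408 on the minus strand and Cd68 is chr10:54882392-54882691 on the minus strand. Mrc1 is chr17:82157475-82157774 on the plus strand and Csf1r is chr18:56834129-56834428 on the plus strand.
Cd14: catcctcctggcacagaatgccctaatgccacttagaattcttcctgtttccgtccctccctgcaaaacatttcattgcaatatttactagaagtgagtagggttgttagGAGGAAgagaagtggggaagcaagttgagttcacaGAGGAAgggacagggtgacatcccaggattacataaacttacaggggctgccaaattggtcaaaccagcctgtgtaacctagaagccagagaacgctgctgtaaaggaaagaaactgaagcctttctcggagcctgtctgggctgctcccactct
Cd68: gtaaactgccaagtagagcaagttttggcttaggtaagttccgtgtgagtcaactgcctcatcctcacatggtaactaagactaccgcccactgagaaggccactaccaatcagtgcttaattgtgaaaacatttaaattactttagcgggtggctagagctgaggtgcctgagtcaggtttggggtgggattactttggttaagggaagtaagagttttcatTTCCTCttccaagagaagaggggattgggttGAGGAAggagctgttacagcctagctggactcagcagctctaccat
Mrc1: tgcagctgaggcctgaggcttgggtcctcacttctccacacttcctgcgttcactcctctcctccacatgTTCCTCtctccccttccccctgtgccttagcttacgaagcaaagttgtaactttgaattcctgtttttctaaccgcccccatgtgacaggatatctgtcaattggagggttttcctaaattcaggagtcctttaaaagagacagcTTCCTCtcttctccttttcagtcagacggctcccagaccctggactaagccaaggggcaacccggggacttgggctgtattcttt
Csf1r: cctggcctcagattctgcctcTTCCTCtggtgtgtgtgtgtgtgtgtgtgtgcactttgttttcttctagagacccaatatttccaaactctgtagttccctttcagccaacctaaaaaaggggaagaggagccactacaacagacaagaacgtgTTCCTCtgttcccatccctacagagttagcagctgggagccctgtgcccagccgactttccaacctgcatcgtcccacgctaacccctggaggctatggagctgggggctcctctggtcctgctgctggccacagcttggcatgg
Of the 8 genes with a window in the table, 6 held the motif on either strand, as did 27.6% of all 33469 windows of 300 bases. The 2 without it were Itgax and Cd163. The annotated start lies 251 bases inside the gene's record for Cd14, 227 for Csf1r and 9960 for Itgax. Matches are of letters only and no binding was measured. Itgb2 and Aif1 are not in the table used.

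Expression is given as log2 MAS 5.0 signal, which the authors had scaled to a common trimmed mean. A signal below 50 (log2 5.64) is called dim here. Replicates scattered widely at such levels, with a median SD of 0.88 for probe sets between 4 and 5 on the log2 scale, against 0.223 between 9 and 10. Changes were tested by limma over all 31042 probe sets, with p-values adjusted by Benjamini-Hochberg and a threshold of 0.05. In tumors against normal bladder, 2756 probe sets were higher and 2818 lower (3634 and 2195 with arrays centred on their medians). In adjacent tissue against normal bladder, 2686 were higher and 3187 lower (4356 and 2557 after centring). By gene, taking the brightest probe set of each, 13.6% of genes were higher and 9.95% lower in tumors, and 13.3% higher and 11.5% lower in adjacent tissue. Smooth muscle transcripts differed widely between samples of the same group. The summed signal of 10 smooth muscle genes was 70.3%, 2.44% and 2.89% of the normal mean in tumors 1, 2 and 3, and 35.2%, 10.7% and 4.52% in adjacent samples 1, 2 and 3, against 98.7% to 102% in normal bladders. Tumor 1 and adjacent sample 1 thus kept the most muscle RNA. In bulk tissue, fewer cells of a type and less RNA per cell cannot be told apart.

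Of the 10 genes, 3 rose in tumors and 5 in adjacent tissue, and 0 fell in either by limma. At an unadjusted p under 0.05, 6 and 7 of the 10 differed (1 and 2 of them lower), where 40% and 39.8% of all genes did. The genes that rose in both were Itgax, Cd14 and Cd68. Itgb2 and Ptprc rose in adjacent tissue. Against the background of 13.6% higher genes in tumors and 13.3% in adjacent tissue, the shares of members were 30% and 50%. The median log2 difference over the 10 was 0.75 in tumors and 0.84 in adjacent tissue, against medians of 0.05 and 0.01 over all genes. Groups did not overlap for 5 members in tumors and 6 in adjacent tissue, where 45.8% and 46.7% of all genes did not overlap. The 2 comparisons share the normal arrays.

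**Figure D1:**
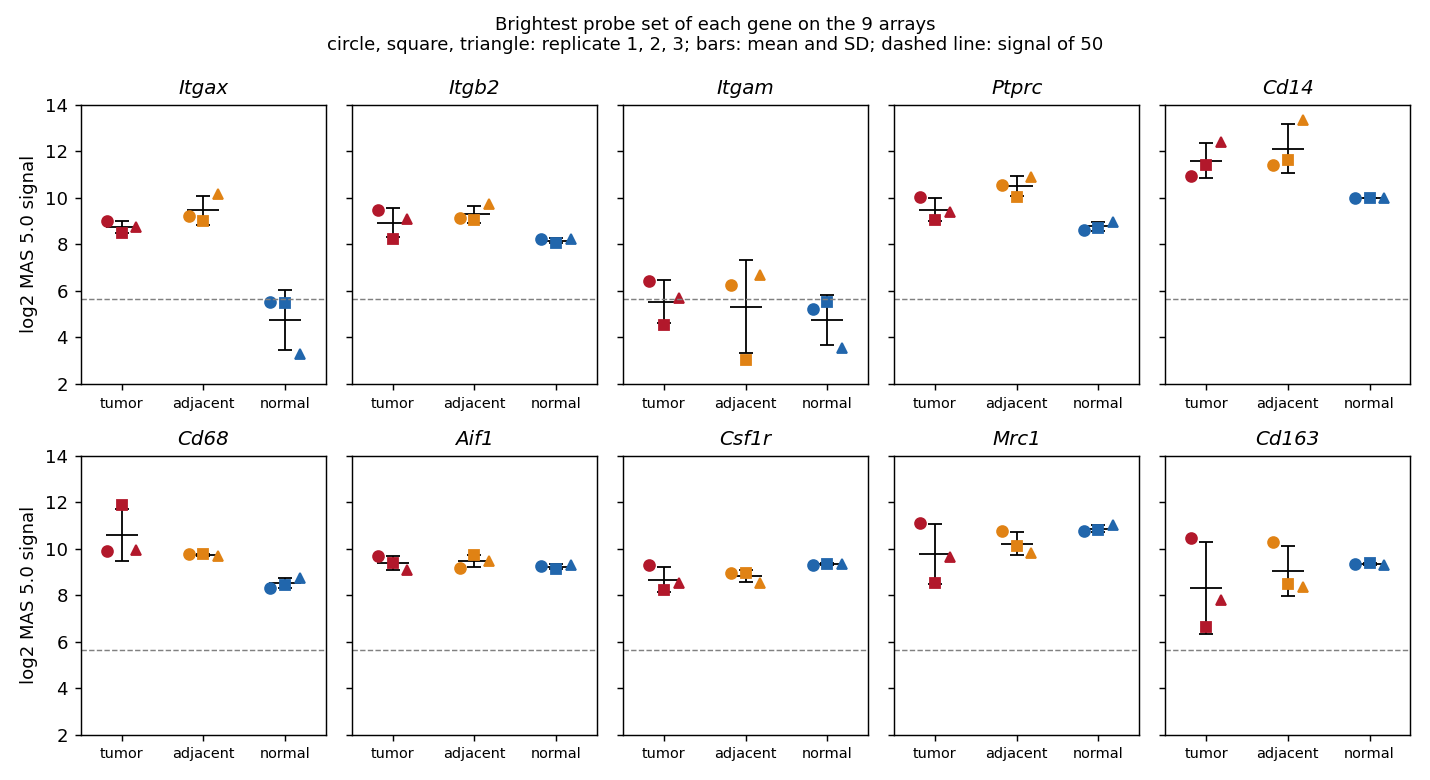
Log2 MAS 5.0 signal (y axis) of the brightest probe set of each gene in tumors, adjacent tissue and normal bladder (3 arrays each); points are arrays, bars the mean and SD, and the dashed line a signal of 50. Itgax lies between 8.50 and 10.18 in tumors and adjacent tissue and at 5.53 or lower in normal bladder, while Cd163 spreads from 6.62 to 10.47 within tumors.

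Itgax had the widest difference of the 10 genes. Its log2 signals were 9.0, 8.50 and 8.76 in tumors 1, 2 and 3, and 9.20, 9.0 and 10.18 in adjacent samples 1, 2 and 3, against 5.53, 5.48 and 3.27 in normal bladders 1, 2 and 3. All 6 samples of tumor-bearing rats lay above all 3 normal bladders, which were dim. Itgax was therefore at least 8.63-fold higher in tumors (adjusted p = 0.0080 from limma, n = 3 arrays per group) and at least 14.1-fold higher in adjacent tissue (adjusted p = 0.0028), taken against the limit of 50. The measured log2 differences were 3.99 (SE 0.61) and 4.70 (SE 0.63). Without normal bladder 3, the dimmest, they were 3.25 and 3.96. The calls held without each array in turn, but not by the methods' t-test after adjustment (adjusted p = 0.067 and 0.0543).

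Itgb2, the partner chain of Itgax, changed less. Its log2 signals were 9.48, 8.24 and 9.08 in tumors 1, 2 and 3, and 9.12, 9.04 and 9.72 in adjacent samples 1, 2 and 3, against 8.21, 8.06 and 8.22 in normal bladders 1, 2 and 3. Tumor 2 was only just above the normal bladders. Itgb2 rose by 1.13 in adjacent tissue (SE 0.21, adjusted p = 0.00995 from limma), which is 2.19-fold. The call was lost without normal bladder 2 (adjusted p = 0.053) and by the methods' t-test (0.0631). Without normal bladder 2, 8.67% of all probe sets passed, against 18.9% with it. In tumors the log2 difference was 0.77 (95% interval 0.05 to 1.49, adjusted p = 0.128), and it passed without tumor 2 (1.12, adjusted p = 0.0188) or after centring each array (0.97, adjusted p = 0.0376).

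Itgam, the CD11b chain encoded next to Itgax, was too dim to follow. Its log2 signals were 6.41, 4.54 and 5.68 in tumors 1, 2 and 3, and 6.25, 3.02 and 6.68 in adjacent samples 1, 2 and 3, against 5.21, 5.54 and 3.54 in normal bladders 1, 2 and 3. The groups overlapped, and 5 of the 9 values fell below the limit of 50. The log2 difference from normal bladder was 0.78 in tumors (95% interval -0.89 to 2.45, adjusted p = 0.497 from limma) and 0.56 in adjacent tissue (95% interval -1.80 to 2.91, adjusted p = 0.761). Both intervals span 0 and are wide.

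Ptprc, the marker of all leukocytes, rose in adjacent tissue. On its brighter probe set, log2 signals were 10.02, 9.05 and 9.41 in tumors 1, 2 and 3, and 10.55, 10.04 and 10.89 in adjacent samples 1, 2 and 3, against 8.63, 8.71 and 8.96 in normal bladders 1, 2 and 3. Every adjacent sample lay above every tumor, and every tumor above every normal bladder, although the closest values nearly touched. Ptprc rose by 1.72 in adjacent tissue (SE 0.23, adjusted p = 0.0027 from limma), or 3.30-fold. In tumors the log2 difference was 0.73 (95% interval 0.13 to 1.32, adjusted p = 0.0912), and it passed without tumor 2 (0.95, adjusted p = 0.0446), with centred arrays (0.93, adjusted p = 0.0238) or as the mean of both probe sets (1.17, adjusted p = 0.0329).

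The dimmer Ptprc probe set, of a type that reads several transcripts of 1 gene, ordered the groups differently. It gave 6.94, 6.42 and 7.04 in tumors 1, 2 and 3, and 6.01, 6.67 and 7.74 in adjacent samples 1, 2 and 3, against 4.54, 6.02 and 4.96 in normal bladders 1, 2 and 3. Adjacent sample 1 was as low as normal bladder 2 on this probe set, whereas it was well above it on the brighter one. The dimmer probe set rose by 1.62 in tumors (SE 0.45, adjusted p = 0.0484 from limma), while in adjacent tissue the log2 difference of 1.63 (SE 0.57) had an adjusted p of 0.0851. The 2 probe sets thus disagree on which comparison passed, and both were positive in each.

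Cd14 rose in both tissues of the tumor-bearing rats. Its log2 signals were 10.94, 11.41 and 12.41 in tumors 1, 2 and 3, and 11.41, 11.61 and 13.33 in adjacent samples 1, 2 and 3, against 9.98, 9.97 and 9.98 in normal bladders 1, 2 and 3. The normal bladders were nearly identical, and the samples numbered 3 were the highest of both other groups. Cd14 rose by 1.61 in tumors (SE 0.34, adjusted p = 0.0204 from limma), or 3.06-fold, and by 2.14 in adjacent tissue (SE 0.45, adjusted p = 0.0148), or 4.41-fold. Both calls were lost without any 1 of the normal bladders (adjusted p = 0.0762, 0.0792 and 0.0781 in tumors without normal bladders 1, 2 and 3, and 0.0595, 0.0601 and 0.0612 in adjacent tissue). They were also lost without the mean-variance trend (adjusted p = 0.066 in tumors and 0.061 in adjacent tissue) and by the methods' t-test (0.113 and 0.117), and the call in tumors in a fit of all 9 arrays (0.0534). Without adjacent sample 3, the difference in adjacent tissue was 1.54 (adjusted p = 0.000441). Without 1 normal bladder, the differences stayed at 1.61 in tumors and 2.14 in adjacent tissue. The share of all probe sets that passed was then 4.68% to 5.4% in tumors, against 18.0% with all arrays. In adjacent tissue it was 8.67% to 9.03%, against 18.9%.

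Cd68 rose in both tissues as well, with 1 tumor far above the others. Its log2 signals were 9.92, 11.87 and 9.95 in tumors 1, 2 and 3, and 9.76, 9.76 and 9.69 in adjacent samples 1, 2 and 3, against 8.33, 8.45 and 8.76 in normal bladders 1, 2 and 3. Tumor 2, in which Itgb2 and Ptprc were the lowest of the tumors, had the highest Cd68 signal of all 9 samples. Cd68 rose by 2.07 in tumors (SE 0.50, adjusted p = 0.0318 from limma), or 4.19-fold, and by 1.22 in adjacent tissue (SE 0.16, adjusted p = 0.0027), or 2.34-fold. Without tumor 2 the difference in tumors was 1.42 (adjusted p = 0.00962). The call in tumors was lost without tumor 3 (adjusted p = 0.053) and without normal bladders 1, 2 and 3 in turn (adjusted p = 0.109, 0.107 and 0.0900). In these fits 9.03% of all probe sets passed without tumor 3 and 4.68% to 5.4% without a normal bladder, against 18.0%. The call in tumors was also lost without the trend (0.0836) and by the methods' t-test (0.146), and that in adjacent tissue in a fit of all 9 arrays (adjusted p = 0.0907).

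Aif1, a pan-macrophage marker, stayed within a narrow range. On its brighter probe set, of a type whose probes can match related transcripts, log2 signals were 9.67, 9.38 and 9.08 in tumors 1, 2 and 3, and 9.19, 9.72 and 9.47 in adjacent samples 1, 2 and 3, against 9.26, 9.12 and 9.30 in normal bladders 1, 2 and 3. The 3 groups overlapped. The log2 difference from normal bladder was 0.15 in tumors (95% interval -0.26 to 0.57, adjusted p = 0.597 from limma) and 0.24 in adjacent tissue (95% interval -0.17 to 0.64, adjusted p = 0.405). Both intervals span 0. The dimmer Aif1 probe set gave 2.57, 5.26 and 6.29 in tumors 1, 2 and 3, and 5.59, 4.71 and 5.45 in adjacent samples 1, 2 and 3, against 5.94, 6.08 and 5.66 in normal bladders 1, 2 and 3. It was dim in 2 tumors and all adjacent samples, and with both probe sets averaged the Aif1 differences turned to -0.52 in tumors and -0.20 in adjacent tissue, neither past the threshold.

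**Figure D2:**
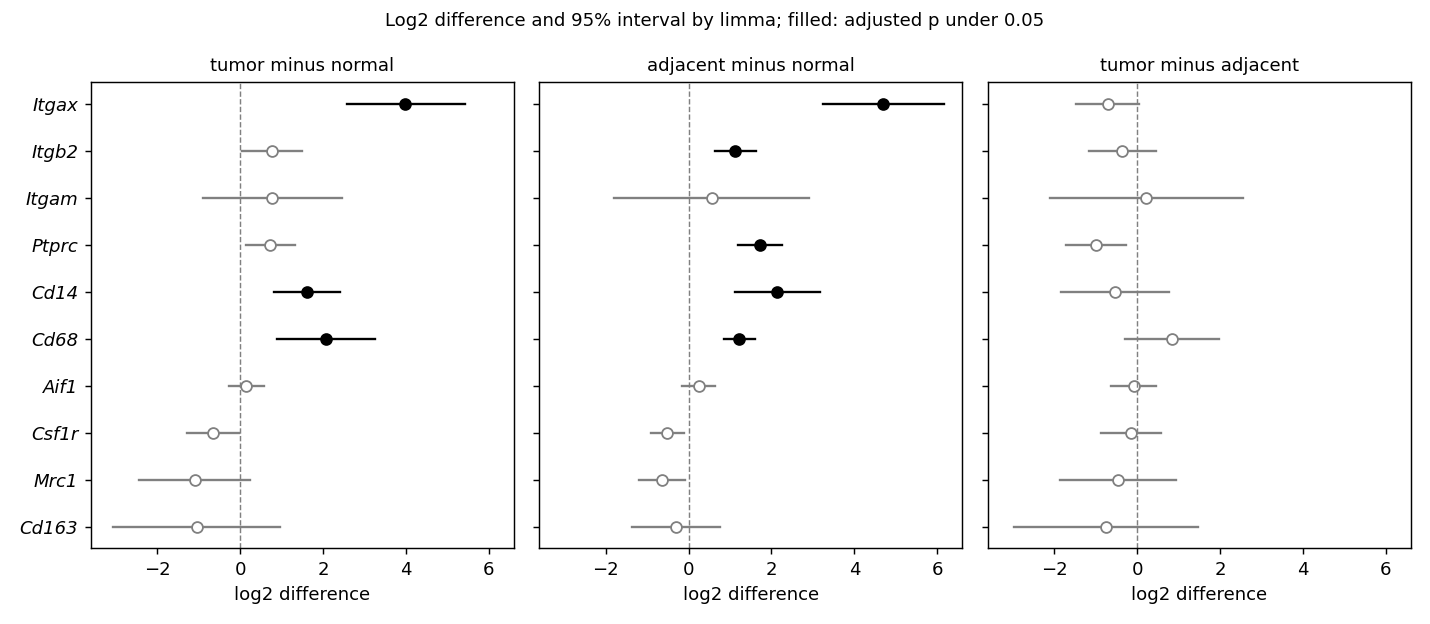
Log2 difference (x axis) of each of the 10 genes for tumor minus normal, adjacent minus normal and tumor minus adjacent, with 95% intervals from limma and filled points where the adjusted p was under 0.05. Itgax, Cd14 and Cd68 passed in tumors and, with Itgb2 and Ptprc, in adjacent tissue; 0 of 10 passed between tumors and adjacent tissue.

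Csf1r, Mrc1 and Cd163, the growth factor receptor and the scavenger receptors, did not share this rise. Csf1r had log2 signals of 9.29, 8.22 and 8.51 in tumors 1, 2 and 3, and 8.97, 8.96 and 8.52 in adjacent samples 1, 2 and 3, against 9.28, 9.33 and 9.36 in normal bladders 1, 2 and 3. Every adjacent sample was below every normal bladder, and tumor 1 was within the normal range while tumors 2 and 3 were under it. The log2 difference was -0.65 in tumors (95% interval -1.28 to -0.02, adjusted p = 0.139 from limma) and -0.51 in adjacent tissue (95% interval -0.91 to -0.11, adjusted p = 0.0792).

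Mrc1 had log2 signals of 11.11, 8.53 and 9.64 in tumors 1, 2 and 3, and 10.76, 10.10 and 9.80 in adjacent samples 1, 2 and 3, against 10.75, 10.81 and 11.03 in normal bladders 1, 2 and 3. Tumor 1 was above all normal bladders, whereas tumor 2 stood at 19.8% and tumor 3 at 42.8% of their mean. The log2 difference was -1.10 in tumors (95% interval -2.44 to 0.24, adjusted p = 0.232 from limma) and -0.64 in adjacent tissue (95% interval -1.19 to -0.09, adjusted p = 0.105).

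Cd163 varied most within the tumors. Its log2 signals were 10.47, 6.62 and 7.79 in tumors 1, 2 and 3, and 10.27, 8.50 and 8.35 in adjacent samples 1, 2 and 3, against 9.34, 9.39 and 9.31 in normal bladders 1, 2 and 3. Tumor 1 and adjacent sample 1 stood at 217% and 189% of the normal mean, and the other tumors and adjacent samples at 15.1% to 55.5%. The log2 difference was -1.05 in tumors (95% interval -3.07 to 0.96, adjusted p = 0.445 from limma) and -0.31 in adjacent tissue (95% interval -1.37 to 0.76, adjusted p = 0.701).

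In tumors the outcome for all 3 of these genes turned on tumor 1, and in adjacent tissue that for Cd163 and Mrc1 turned on adjacent sample 1. Without tumor 1, Cd163 was lower in tumors by 2.14 on the log2 scale (adjusted p = 0.00189), Mrc1 by 1.78 (adjusted p = 0.00322) and Csf1r by 0.96 (adjusted p = 0.00223), and 29.7% of all probe sets passed in either direction, against 18.0% with it. Without adjacent sample 1, Cd163 was lower in adjacent tissue by 0.92 (adjusted p = 0.00489) and Mrc1 by 0.91 (adjusted p = 0.00624), and 23.2% of probe sets passed, against 18.9%. Without tumor 2, the tumor differences were -0.22, -0.49 and -0.42 for Cd163, Mrc1 and Csf1r. Tumor 1 and adjacent sample 1 were also the samples with the most smooth muscle RNA of their groups (70.3% and 35.2% of normal) and the most fibroblast RNA (76.4% and 63.7% over 8 genes, against 7.49% to 51.2% in the other tumors and adjacent samples). The part of muscle and fibroblast tissue in the levels of these genes was not tested.

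**Figure D3:**
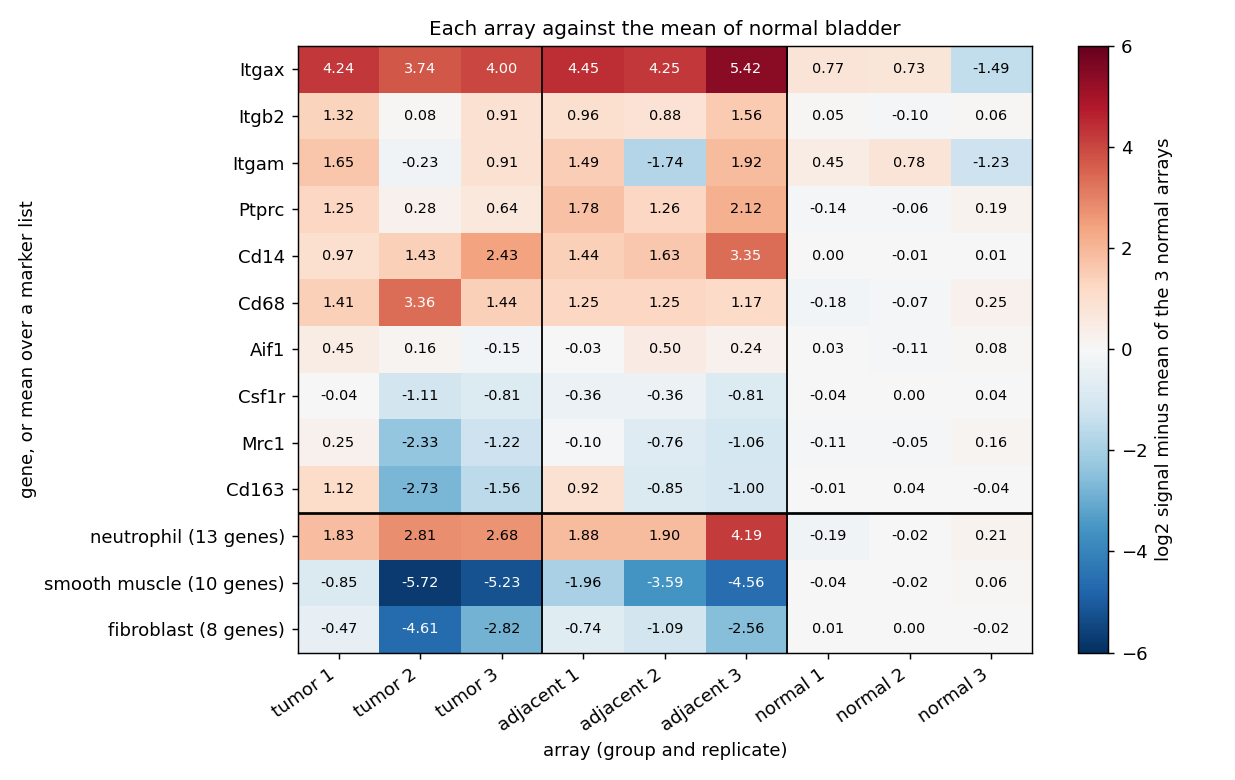
Log2 signal of each array minus the mean of the 3 normal arrays, for the 10 genes and for the mean over 3 marker lists; red is higher and blue lower than normal bladder. Cd163 is at 1.12 in tumor 1 and 0.92 in adjacent sample 1 but at -2.73 in tumor 2, and these arrays also differ in the smooth muscle and fibroblast rows.

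Tumors and adjacent tissue were then compared with each other, which asks if the myeloid genes differ within the diseased bladder. By limma, 0 of the 10 genes and 0.0% of 31042 probe sets passed. The methods' t-test also gave 0 after adjustment. At an unadjusted p under 0.05, limma gave 845 probe sets, 2.64% of genes and 1 of the 10 (Ptprc), and the methods' t-test gave 1029 probe sets and 0 of the 10. Paired by number, Ptprc was lower in the tumor in 3 of 3 pairs, by 0.53, 0.98 and 1.48 on the log2 scale in pairs 1, 2 and 3 (mean -1.0, SE 0.31, adjusted p = 1.0; with the pair as a block, SE 0.21 and adjusted p = 0.919). Itgax was also lower in the tumor in 3 of 3 pairs, with a log2 difference of -0.71 (95% interval -1.47 to 0.05, or -1.36 to -0.06 with the pair as a block). Cd14 was lower in 3 of 3 pairs as well, with a difference of -0.53 (95% interval -1.83 to 0.77, or -0.95 to -0.11 with the block). With the block, these 2 genes and Ptprc (3 of the 10) had an unadjusted p under 0.05, as did 5.3% of all genes, and 0 of the 10 passed after adjustment (adjusted p = 0.919 for each of the 3 by limma). Cd68 was higher in 3 of 3 pairs (0.84, 95% interval -0.30 to 1.98, or -0.09 to 1.78 with the block), though by only 0.16 and 0.27 in pairs 1 and 3, against 2.10 in pair 2. The other 6 genes had mixed directions among pairs. The pairing by number is assumed. Tumors and adjacent samples did not overlap for 3 of the 10 genes (Itgax, which just touched, Cd68 and Ptprc), where 7.06% of all genes did not overlap; the dimmer Ptprc probe set overlapped and had a difference of -0.01.

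Around the 10 genes, other macrophage and monocyte genes moved in both directions. Of 29 measured, 7 were higher and 1 lower in tumors, and 12 were higher and 1 lower in adjacent tissue, with medians of 0.35 and 0.71 on the log2 scale. In tumors 27.6% of the list passed, near the 23.5% of all genes. In adjacent tissue 44.8% passed, against 24.8% of all genes. In tumors the largest rises among those that passed were Cd40, a co-stimulatory receptor (1.61, SE 0.41, adjusted p = 0.037 from limma), and Gpnmb, a glycoprotein of lipid-laden and repair macrophages (1.61, SE 0.27, adjusted p = 0.011). In adjacent tissue they were Clec7a, the fungal glucan receptor dectin-1 (2.23, SE 0.35, adjusted p = 0.0051), and Irf8, a transcription factor of monocytes and dendritic cells (2.01, SE 0.15, adjusted p = 0.00050). The 1 that fell in both was Stab1, a scavenger receptor of resident macrophages and of some endothelium (fell by 1.59 in tumors, SE 0.40, adjusted p = 0.036, and by 1.46 in adjacent tissue, SE 0.33, adjusted p = 0.020). Others with a role like that of Mrc1 and Cd163, named after their values were seen, did not pass. Lyve1, a hyaluronan receptor of resident macrophages and lymphatic vessels, had differences of -1.91 in tumors (adjusted p = 0.052) and -1.32 in adjacent tissue (adjusted p = 0.079). Folr2, a folate receptor, had -0.66 (adjusted p = 0.20) and -0.44 (adjusted p = 0.15). The C1q genes, complement subunits made largely by macrophages, had differences between -0.07 and 0.35, none past the threshold.

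Partners of the 10 genes were followed next, by role. Of 21 measured, 10 were higher and 1 lower in tumors, and 12 were higher and 1 lower in adjacent tissue. The shares that passed were 52.4% and 61.9%, against 23.5% and 24.8% of all genes. Csf1 and Il34, the ligands of Csf1r, did not pass in either: Csf1 differed by -0.08 in tumors (adjusted p = 0.79 from limma) and -0.63 in adjacent tissue (adjusted p = 0.088), and Il34 by 0.24 (adjusted p = 0.53) and 0.05 (adjusted p = 0.94). The receptors that Cd14 serves rose with it in both tissues. Tlr4 rose by 1.36 in tumors (adjusted p = 0.024) and by 1.13 in adjacent tissue (adjusted p = 0.026), and its accessory protein Ly96 (MD-2) by 1.31 (adjusted p = 0.013) and 0.95 (adjusted p = 0.013). Tlr2, a receptor of bacterial lipoproteins, rose by 1.80 (adjusted p = 0.0052) and 1.93 (adjusted p = 0.0082). Lbp, the lipopolysaccharide-binding protein, did not rise with them. Its differences were -1.90 in tumors (adjusted p = 0.28) and -0.49 in adjacent tissue (adjusted p = 0.49). Among alpha chains of Itgb2, Itgal (CD11a) rose in adjacent tissue by 0.88 (adjusted p = 0.011), with a difference of 0.43 in tumors (adjusted p = 0.17), and Itgad (CD11d) passed in neither. These were named for their roles after the values were seen.

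C3, a ligand of the integrins, and Hmox1, a haem enzyme, held the largest rises among the partners that passed. C3, whose fragment iC3b is bound by CD11b and CD11c integrins, rose by 4.53 in tumors (SE 1.21, adjusted p = 0.042 from limma) and by 4.95 in adjacent tissue (SE 0.65, adjusted p = 0.0026). Icam1, an endothelial and epithelial ligand of these integrins, rose by 1.36 (adjusted p = 0.031) and 1.29 (adjusted p = 0.029), while Icam2 fell by 0.88 in tumors (SE 0.19, adjusted p = 0.024). Hmox1, the enzyme that breaks down haem taken up through Cd163, rose by 4.09 in tumors (SE 0.52, adjusted p = 0.0052) and by 2.36 in adjacent tissue (SE 0.44, adjusted p = 0.0092), although Cd163 did not. Hp (haptoglobin), another listed partner, passed in neither tissue by limma. Its differences were 0.82 in tumors (adjusted p = 0.22) and 1.72 in adjacent tissue (adjusted p = 0.21). Tln1, an integrin activator that muscle also expresses, fell by 1.23 in adjacent tissue (SE 0.31, adjusted p = 0.030).

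**Figure D4:**
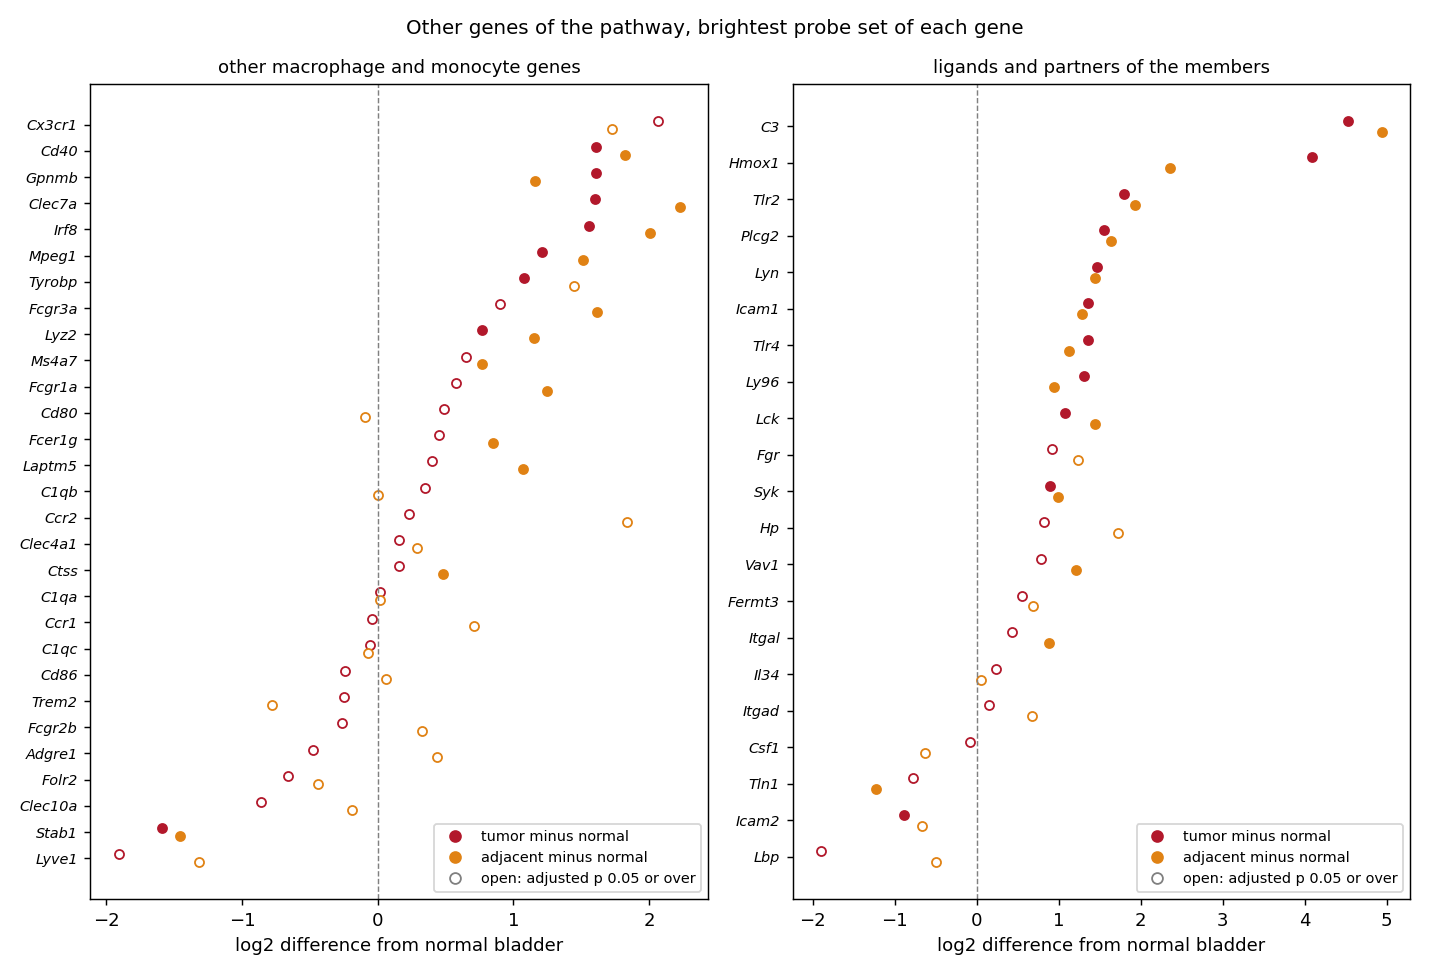
Log2 difference from normal bladder (x axis) of 29 other macrophage and monocyte genes and 21 ligands and partners, in tumors (red) and adjacent tissue (orange); filled points passed an adjusted p under 0.05 and open points did not. C3 and Hmox1 lie at the upper end of the partners, and Stab1 passed on the lower side in both tissues.

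Among markers of other leukocytes, several neutrophil genes were higher beside the myeloid genes, and few genes of the other lists passed. Of 13 neutrophil genes, 6 were higher in tumors and 7 in adjacent tissue, and 0 were lower. The shares that passed were 46.2% and 53.8%, against 23.5% and 24.8% of all genes. The summed signal of the 13 genes was 393% to 1410% of the normal mean in tumors. It was 543% to 3350% in adjacent tissue, against 92.8% to 109% in normal bladders. S100a8 and S100a9, calcium-binding proteins of neutrophils that inflamed squamous epithelium also makes, led the list and made up 48.8% to 85.0% of the sum in tumors and 55.7% to 86.0% in adjacent tissue, against 3.64% to 10.1% in normal bladders. Without them, an alternative chosen after this was seen, the sum of the other 11 was 214% to 225% of the normal mean in tumors and 203% to 500.0% in adjacent tissue, against 94.2% to 110% in normal bladders. Cybb, a subunit of the phagocyte oxidase, had a difference of -0.08 in tumors (adjusted p = 0.86 from limma). It rose by 0.62 in adjacent tissue (adjusted p = 0.016 from limma). The chemokine receptor Cxcr1 had differences of -1.64 in tumors (adjusted p = 0.27) and -1.87 in adjacent tissue (adjusted p = 0.25). Cxcr1 was dim in all tumors and all adjacent samples, so neither value gives a direction. S100a8 was at least 52.1-fold higher in tumors (adjusted p = 0.0023 from limma) and at least 85.7-fold higher in adjacent tissue (adjusted p = 0.0019). Adjacent sample 3 had the highest Itgax, Itgb2, Ptprc and Cd14 signals of the 9 samples and also the highest neutrophil sum, with or without S100a8 and S100a9. The part of neutrophils in the levels of Itgax, Itgb2, Cd14 and Ptprc was not tested.

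Of 16 T and NK cell genes, 1 was higher in tumors (Cd3d, a subunit of the T cell receptor complex, at least 1.27-fold) and 2 in adjacent tissue (Cd3d at least 3.35-fold and Cd5 at least 2.19-fold), and 0 were lower. The shares that passed were 6.25% in tumors and 12.5% in adjacent tissue, below the 23.5% and 24.8% of all genes. Gzma was dim on all 9 arrays. Of 7 B and plasma cell genes, 0 passed in tumors by limma, against 23.5% of all genes. At an unadjusted p under 0.05, 3 of the 7 differed in tumors, where 40% of all genes did. In adjacent tissue 28.6% of the list passed, near the 24.8% of all genes, and 2 genes were higher. These were Jchain, the joining chain of secreted antibodies, at least 16.2-fold higher, and Mzb1, a plasma cell chaperone, at least 4.13-fold higher. The B and plasma cell sum was 142% to 1840% of normal in adjacent tissue, with adjacent sample 1 the highest, and 66.4% to 167% in tumors, against 88.0% to 116% in normal bladders. Of 6 dendritic cell genes, 1 was higher in each tissue (Clec9a, a receptor for dead cells, by 1.98 in tumors and 2.39 in adjacent tissue). Of 9 mast cell genes, 1 was higher in tumors (Tpsab1, a tryptase, by 2.39) and 0 in adjacent tissue by limma. At an unadjusted p under 0.05, 1 of the 9 differed there, where 39.8% of all genes did. In each tissue 16.7% of the dendritic list passed. The mast cell shares were 11.1% in tumors and 0.0% in adjacent tissue. These shares are below those of all genes. The part of these cells in the levels of Ptprc, Itgb2 and Itgax was not tested.

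Of the tissue markers of bladder, urothelial transcripts as a sum were above the normal level, while muscle and fibroblast transcripts were below it. Urothelial transcripts summed to 133% to 156% of the normal level in tumors and 113% to 142% in adjacent tissue, against 97.4% to 104% in normal bladders, and 0 of the 14 were dim on all arrays. Single members went both ways, with 6 higher and 2 lower in tumors and 6 higher and 2 lower in adjacent tissue. That is 57.1% in each, against 23.5% and 24.8% of all genes. Krt14, a basal keratin, rose by 4.81 in tumors (adjusted p = 0.00032 from limma) and by 4.65 in adjacent tissue (adjusted p = 0.00027), and Krt20, a keratin of superficial cells, fell by 3.82 (adjusted p = 0.021) and 1.70 (adjusted p = 0.0053). Of the 10 smooth muscle genes, 4 fell in tumors and 10 in adjacent tissue, where 9.95% and 11.5% of all genes fell. Of the 8 fibroblast genes, 0 passed in tumors by limma and 5 fell in adjacent tissue. At an unadjusted p under 0.05, all 8 differed in tumors, where 40% of all genes did. Endothelial sums ranged from 97.3% to 133% in tumors and 104% to 120% in adjacent tissue, against 89.9% to 109%. Of 7 endothelial genes, 2 were higher in tumors and 3 in adjacent tissue, and 0 were lower. These shares were 28.6% and 42.9%, against 23.5% and 24.8% of all genes. Red cell genes summed to 35.4% to 138% in tumors and 14.3% to 29.9% in adjacent tissue, against 77.6% to 115% in normal bladders. Of these 3 genes, 0 passed in tumors by limma (0 at an unadjusted p under 0.05) and 2 fell in adjacent tissue.

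The gene whose profile over the 9 arrays lay nearest to each member was found among 11076 genes with a mean signal of 50 or more, by Euclidean distance between log2 profiles centred on their own means. For scale, a member's own distance from a flat line is given beside it. Itgax was nearest to Slpi, a protease inhibitor secreted by epithelia and neutrophils (distance 0.76, Itgax from flat 6.55). Cd14 was nearest to Sod2, the mitochondrial superoxide dismutase (0.70, from flat 3.29), and Itgb2 to Ctsz, a lysosomal cathepsin (0.42, from flat 1.76). Ptprc was nearest to Marchf1, a ubiquitin ligase of antigen-presenting cells (0.48, from flat 2.32), and Cd68 to Cda, a cytidine deaminase (1.05, from flat 3.01). On the other side, Cd163 was nearest to F2r, the thrombin receptor (0.93, from flat 3.44), Mrc1 to Tbkbp1, an adaptor of the kinase TBK1 (0.62, from flat 2.39), and Csf1r to App, the amyloid precursor (0.26, from flat 1.21). The profiles of Aif1 and Itgam are close to flat or dim, and their nearest genes (Sema4f at 0.34, from flat 0.65, and Arhgdig at 2.10, from flat 3.62) are given for completeness. Among the members themselves, Itgb2 and Ptprc were the closest pair (1.01), followed by Mrc1 and Csf1r (1.31). These distances are descriptions over 3 groups of 3 arrays.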

How the data were processed

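RNA of 3 tumors, 3 adjacent samples and 3 normal bladders was hybridised by the authors to Affymetrix rat expression arrays. The authors deposited log2 values of MAS 5.0 signal, scaled on each array to a common trimmed mean; no genome build enters them. They were used as deposited, without further normalization. MAS 5.0 subtracts mismatch probes, which makes low signals noisy. Arrays carry no read depth, so their number limits the precision. Of 31099 probe sets, 57 array controls were left out. Genes were named from the platform annotation: 20826 probe sets had 1 symbol, 436 several and 9780 none. All per-sample columns were mapped to samples.

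The 3 pairs of groups had separate fits in limma 3.58.1 under R 4.3.3 (two-sided, with a mean-variance trend) over 31042 probe sets, with Benjamini-Hochberg adjustment. P-values set each group difference against the spread between these samples, which limma moderates with that of all probe sets. A gene was counted by its brightest probe set over 9 arrays. The fits were tested on simulated data. The members, the 12 gene lists written from general knowledge, and the tests were chosen with earlier results of these data known. The limit of 50 was chosen after the spread by level was seen. Named genes were the 10 members, the nearest gene to each and, of each list, up to 2 highest and 2 lowest past the threshold; others were named for their role after their values were seen. A fold against a group that is dim on all arrays was taken against 50 and written as at least that fold.

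The series design calls tumor and adjacent tissue paired. No label says that equal numbers mark 1 rat. Deviations of same-numbered tumor and adjacent samples correlated at 0.523, 0.128 and 0.378 for numbers 1, 2 and 3. Tumor 2 correlated more with adjacent sample 3 (0.272) than with adjacent sample 2. Pairing by number is thus an assumption, least borne out for pair 2, and the main fit had no block. Normal bladders are from other rats. Alternatives were arrays centred on their medians, quantile normalization and an offset of 50 added before the log. Others were leaving out probe sets below the 40th percentile of signal, no trend, the replicate block and 1 fit over all 9 arrays. The rest were the methods' t-test, probe sets averaged by gene, and leaving out each array. The paper names a t-test at p under 0.05 and no adjustment, and Benjamini-Hochberg was added to it here.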

Additional observations from a re-analysis of the deposited data

How the results depend on the processing

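Itgax kept its calls under every alternative but the methods' t-test after adjustment. Signals below 50 were too noisy to give a direction for Itgam. In tumors against normal bladder, 3 of the 10 genes passed. With arrays centred on their medians 5 passed, and without the mean-variance trend 1. The methods' t-test gave 0 after the adjustment added here and 3 at its own limit of p under 0.05. Without 1 array at a time, 1 to 6 passed. Without tumor 1 there were 6, and without normal bladder 1, 2 or 3 there was 1. The 5574 probe sets became 2376 without the trend and 1453 to 9216 without 1 array. The methods' t-test gave 1764 after adjustment and 8800 at p under 0.05. In adjacent tissue against normal bladder, 5 genes passed, and 3 to 7 without 1 array. The methods' t-test gave 2 after adjustment and 6 (5 higher, 1 lower) at p under 0.05. The 5873 probe sets became 3414 without the trend and 2691 to 7198 without 1 array. The methods' t-test gave 2394 after adjustment and 8813 at p under 0.05. Tumors against adjacent tissue gave 0 after adjustment under every setting run.

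With the replicate block, 3705 probe sets passed in tumors against normal bladder, where equal numbers join different rats, and 4717 in adjacent tissue. It changed no call of the 10 genes (3, 5 and 0 passed).

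Some differences that did not pass changed sign, and the cause was not tested. With probe sets averaged, Aif1 was at -0.52 in tumors and -0.20 in adjacent tissue against normal bladder. Without 1 array at a time, differences in adjacent tissue against normal bladder ranged from -0.13 to 1.70 for Itgam and from -0.92 to 0.04 for Cd163. In tumors against adjacent tissue they ranged from -0.92 to 0.91 for Itgam, -1.83 to 0.09 for Cd163, -1.14 to 0.15 for Mrc1, -0.45 to 0.09 for Csf1r, -0.94 to 0.08 for Cd14 and -0.23 to 0.07 for Aif1. With 50 added before the log, Itgam was at -0.05 there.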
